A study of Mus musculus with 4 samples.

Results

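The glucocorticoid receptor gene Nr3c1 and 8 genes known to respond to glucocorticoids (Tsc22d3, Fkbp5, Per1, Klf9, Sgk1, Ddit4, Zbtb16 and Txnip) were followed in effector CD4 cells of mice with experimental autoimmune encephalomyelitis (EAE). These 9 genes were chosen by name, with earlier results of these data known. All 9 were found among the 23990 gene symbols of the deposited tables. EAE is a mouse model of multiple sclerosis in which immunization against a myelin protein brings T cells into the central nervous system (CNS). Wild type C57BL/6 mice (C57BL/6J in the Methods) were immunized with a MOG peptide in complete Freund's adjuvant and given pertussis toxin, and at disease onset CD44+CD4 cells were sorted from spinal cords (called CNS) and from pooled cells of the draining lymph nodes (called dLN). RNA sequencing gave 2 libraries per tissue, 4 in all. The Methods describe stimulation of the cells with PMA and ionomycin, which activate T cells through protein kinase C and calcium. The sample labels instead name no stimulation and call the cells freshly sorted. Age, sex and the number of mice behind each library are not given in the sources used here. Nothing states that the 2 libraries of a tissue came from separate mice, so the p-values measure the spread between these libraries, which may be technical.

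Glucocorticoids are steroid hormones of the adrenal cortex that enter cells and bind a receptor held in the cytoplasm by heat shock protein chaperones. The bound receptor moves to the nucleus and raises or lowers transcription, at palindromic glucocorticoid response elements or through other transcription factors. In T cells the hormone is known for limiting cytokine production and for killing immature cells. Several of its target genes also answer other signals: Ddit4 to energy stress and low oxygen, Txnip to glucose, and Klf9 and Per1 to the circadian clock.

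Levels are given in FPKM (fragments scaled to transcript length and to the mapped fragments of the library), summed over the RefSeq transcripts of a gene. The libraries held an estimated 18.4 M to 21.7 M fragments each, read from the spacing of their lowest FPKM. Defining T cell markers were present in each library, with Cd4 at 502 and 531 FPKM in CNS and at 82.0 and 66.7 FPKM in dLN. Cd3e, Cd3d and Cd28 were also higher in CNS. Cd44, on which the cells were sorted, went the other way, at 112 and 112 FPKM in CNS and at 176 and 157 FPKM in dLN. CNS replicate 2 stood apart in the markers of other cells: summed neutrophil markers (4 genes) reached 197 FPKM there against 0.767 FPKM in CNS replicate 1, and summed microglia and macrophage markers (13 genes) reached 203 against 60.9 FPKM. Log2 ratios compare CNS with dLN on the scale of log2(FPKM + 1), which understates the change of low genes. A gene entered the limma test when its mean reached 1 FPKM in either tissue, and an adjusted p under 0.05 (Benjamini-Hochberg over 10634 genes) was taken as a call. In bulk RNA, fewer cells of a type and less RNA per cell cannot be told apart.

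Upstream sequence is shown for 5 of the genes, in each of which it holds letters of a motif that was searched for. The 250 bases before a start site are written 5' to 3' on the gene's strand from RefSeq (GRCm38.p6), and capitals mark the matched letters. The windows lie at chr10:21993640-21993889 (Sgk1, plus strand), chr17:28486150-28486399 (Fkbp5, minus strand), chr11:69098699-69098948 (Per1, plus strand), chr19:23140976-23141225 (Klf9, plus strand) and chr3:96557707-96557956 (Txnip, plus strand).
Sgk1: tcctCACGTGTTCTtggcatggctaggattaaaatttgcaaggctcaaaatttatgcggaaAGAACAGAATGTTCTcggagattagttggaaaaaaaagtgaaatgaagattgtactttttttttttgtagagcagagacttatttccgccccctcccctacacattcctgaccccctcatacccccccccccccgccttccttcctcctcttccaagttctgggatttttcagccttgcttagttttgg
Fkbp5: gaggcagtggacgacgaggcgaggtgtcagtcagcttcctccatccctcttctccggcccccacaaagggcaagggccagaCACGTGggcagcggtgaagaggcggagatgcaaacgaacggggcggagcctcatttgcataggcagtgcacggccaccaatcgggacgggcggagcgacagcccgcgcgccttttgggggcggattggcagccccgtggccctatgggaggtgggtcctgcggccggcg
Per1: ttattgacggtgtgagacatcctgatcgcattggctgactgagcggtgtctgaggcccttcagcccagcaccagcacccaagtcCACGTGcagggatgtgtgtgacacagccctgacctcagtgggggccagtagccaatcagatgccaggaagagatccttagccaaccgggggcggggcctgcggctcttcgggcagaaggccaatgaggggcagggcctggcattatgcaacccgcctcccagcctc
Klf9: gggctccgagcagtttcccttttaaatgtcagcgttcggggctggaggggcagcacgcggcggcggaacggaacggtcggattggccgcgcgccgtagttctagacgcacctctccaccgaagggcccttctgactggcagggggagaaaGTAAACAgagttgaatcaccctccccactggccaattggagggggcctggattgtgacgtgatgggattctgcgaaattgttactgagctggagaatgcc
Txnip: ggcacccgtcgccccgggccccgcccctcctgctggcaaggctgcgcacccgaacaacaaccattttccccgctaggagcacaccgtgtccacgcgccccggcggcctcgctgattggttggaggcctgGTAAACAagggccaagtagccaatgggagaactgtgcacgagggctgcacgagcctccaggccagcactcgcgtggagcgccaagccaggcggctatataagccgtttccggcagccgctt
In Sgk1 the capitals hold the full glucocorticoid response element palindrome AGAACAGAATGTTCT, at -189 to -175 from the start of one of the minor transcripts. Of 32851 mouse promoter windows (250 bases before to 50 after a start), 3 (0.00913%) held this palindrome on either strand with any 3 bases between its arms. It ended 951 bases before the start of the main Sgk1 transcript. One arm alone, AGAACA, was found in 19.0% of windows. Neither the palindrome nor an arm lay in the windows of Fkbp5, Per1, Klf9 or Txnip, or in that of the main Sgk1 transcript. The E-box CACGTG, bound by clock and carbohydrate response factors, lay at -169 to -164 in Fkbp5 and at -166 to -161 in Per1, and 7.15% of windows held it. The first capitals of the Sgk1 window hold another E-box, at -246 to -241, which overlaps a single arm of the palindrome at -242 to -237. The forkhead letters GTAAACA lay at -100 to -94 in Klf9 and at -121 to -115 in Txnip, against 3.65% of windows. A match is a description of letters and not a measured binding site. The Txnip window also overlaps an exon of the antisense gene Gm15441. Windows of 7 of the 9 genes were searched, 15 windows in all. No window of Nr3c1 or Zbtb16 was searched, so nothing is said here of their upstream sequence. No window lay at the start of the main Tsc22d3 transcript. Of the 3 Tsc22d3 windows at other starts, only that of the transcript NM_001077364 held a single arm of the palindrome. None of the 3 held another motif named here. The Ddit4 window held none of these motifs.

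**Figure D1:**
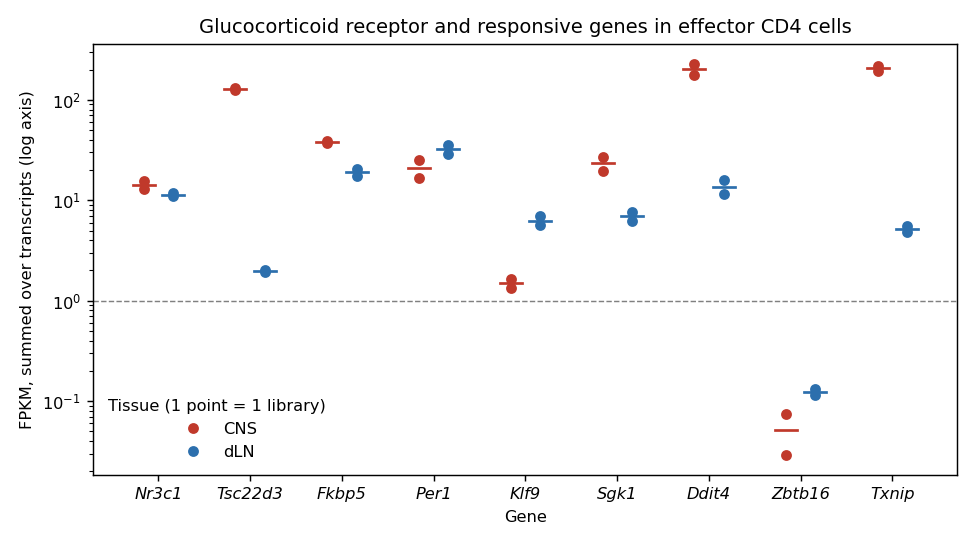
Level of each of the 9 genes in FPKM (log axis), with 1 point per library, a bar at the mean of the 2 libraries of a tissue and a dashed line at 1 FPKM. Tsc22d3, Txnip and Ddit4 stood far higher in CNS, Klf9 stood lower, and Zbtb16 lay below the line in all 4 libraries.

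Of the 9 genes, 8 passed the filter and 6 were called, 5 higher in CNS (Tsc22d3, Txnip, Ddit4, Sgk1 and Fkbp5) and 1 lower (Klf9). The receptor gene and Per1 were not called, and Zbtb16 was under the filter. A share of 75% called is close to the background, since 74.9% of all genes tested were called, 37.8% higher and 37.2% lower in CNS. The count is therefore not a result about these genes. The sizes are given as a description only, since the genes were chosen with earlier results of these data known. The median size of the log2 ratio was 1.57 over the 8 genes and 0.80 over all genes tested. At 2-fold or more, 5 of the 8 were called, against 39.2% of all genes tested. The libraries of the tissues did not overlap in any of the 8 genes, and 89.4% of all genes tested had no overlap.

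**Figure D2:**
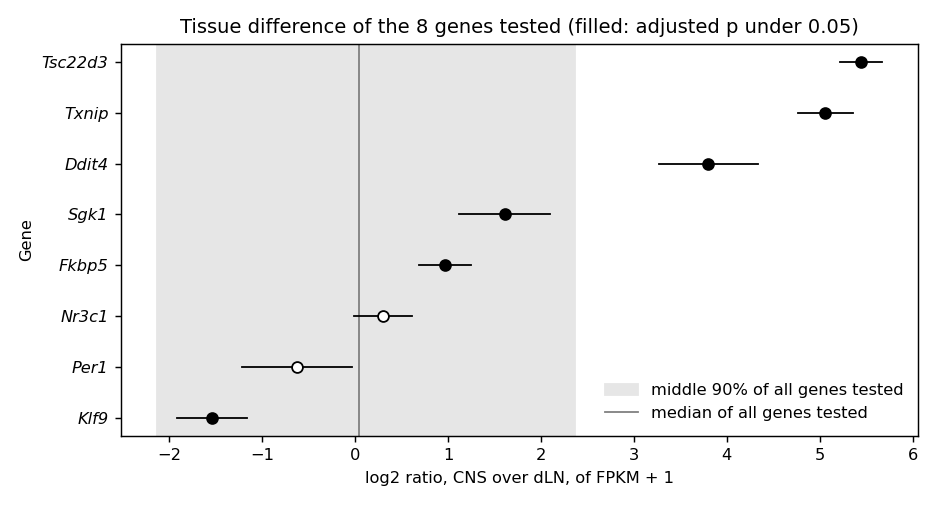
Log2 ratio of CNS over dLN of the 8 genes tested, with 95% intervals from limma, filled points for called genes and a grey band for the middle 90% of all genes tested (-2.13 to 2.36). Tsc22d3, Txnip and Ddit4 lay above the band, and the other 5 lay inside it.

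Nr3c1, on the minus strand of chr18:39410545-39487245 (mm10), encodes the receptor itself. It was read at 15.6 and 12.9 FPKM in CNS and at 11.7 and 10.96 FPKM in dLN. The groups did not overlap, but the lower CNS library lay nearer to both dLN libraries than to the other CNS library. The means were 14.3 ± 1.93 and 11.3 ± 0.531 FPKM (SD, n = 2 libraries per tissue). Its log2 ratio was 0.30 (SE 0.12, 95% interval -0.014 to 0.62), and limma gave an adjusted p of 0.0738. The interval leaves room for a ratio from about equal levels up to 0.62 on the log2 scale. Without CNS replicate 2 the ratio was 0.43 with a limma adjusted p of 0.0487. The genes nearest to Nr3c1 in pattern over the 4 libraries, by Euclidean distance of centred log2 values, were Soat1, Rpl22l1 and Morc3, at distances of 0.0151, 0.0165 and 0.0240.

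Fkbp5 (chr17:28398753-28486149, minus strand) encodes FKBP51, a co-chaperone that lowers the receptor's affinity for hormone and is itself induced by it, a short feedback loop. Its level was 37.6 and 39.1 FPKM in CNS and 20.7 and 17.6 FPKM in dLN. Both CNS libraries were above both dLN libraries. The means of 38.3 ± 1.07 and 19.2 ± 2.20 FPKM (SD, n = 2) gave a log2 ratio of 0.97 (SE 0.11, limma adjusted p 0.00107). Its relative Fkbp4 encodes FKBP52, which acts on the receptor in the opposite sense, and went the other way. Fkbp4 was read at 40.1 and 43.2 FPKM in CNS and at 107 and 117 FPKM in dLN, a log2 ratio of -1.40 (SE 0.09, limma adjusted p 0.000220).

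Tsc22d3 (chrX:140539529-140600522, minus strand) encodes GILZ, a leucine zipper protein that binds NF-kappa B and AP-1 and carries part of the hormone's anti-inflammatory action. Its level was 125 and 132 FPKM in CNS and 2.02 and 1.94 FPKM in dLN. The gap between tissues exceeded by far that between replicates. The means were 129 ± 4.82 and 1.98 ± 0.0569 FPKM (SD, n = 2), a ratio of 64.9. The log2 ratio of 5.44 (SE 0.085, limma adjusted p 8.12e-05) was the 16th highest of 10634. Among the genes tested, Tsc22d3 stood at the 94.7 and 94.6 percentile of level in the CNS libraries and at the 17.6 and 19.0 percentile in the dLN libraries. The gene is X-linked, and transcripts of the sex chromosomes followed the tissues, with Ddx3y of the Y chromosome at 12.7 and 11.2 FPKM in CNS but listed at 0 in dLN. X-linked Xist was at most 0.00260 FPKM in CNS and at 26.6 and 22.3 FPKM in dLN. The 325 X-linked genes tested had a median log2 ratio of 0.11, against 0.05 over all genes tested. Tissue and sex-linked split cannot be told apart in this design, for Tsc22d3 or for any other gene compared here. The nearest patterns to Tsc22d3 were Rtp4, Y-linked Eif2s3y and Ifit3, at distances of 0.278, 0.326 and 0.327.

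Of the 3 Tsc22d3 transcripts, the short NM_010286 carried the gene. It was read at 123 and 131 FPKM in CNS and at 2.02 and 1.88 FPKM in dLN, and made up at least 96.8% of the gene's FPKM in each library. The long NM_001077364, which starts at the upstream promoter, was at 0.538 and 0.353 FPKM in CNS. In dLN its estimate was close to 0 in replicate 1 and 0.0621 FPKM in replicate 2. Over 13636 transcripts tested, 66.4% were called, and the short form had a log2 ratio of 5.44 with a limma adjusted p of 0.000266.

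Sgk1 (chr10:21882184-21999902, plus strand) encodes a kinase that phosphorylates Foxo proteins and supports IL-23 receptor expression in Th17 cells. It was read at 19.6 and 27.2 FPKM in CNS and at 7.67 and 6.20 FPKM in dLN. Its CNS libraries differed more from each other than its dLN libraries did, and the tissues did not overlap. The means of 23.4 ± 5.37 and 6.94 ± 1.04 FPKM (SD, n = 2) gave a log2 ratio of 1.61 (SE 0.19, limma adjusted p 0.00125). The transcript NM_011361 held 86.1% and 91.0% of the FPKM in CNS and 97.5% and 92.7% in dLN. The transcript whose upstream window holds the palindrome, NM_001161850, was at 0.697 and 0.279 FPKM in CNS and at 0.195 and 0.263 FPKM in dLN. The lower CNS value and the higher dLN value of this form lay close together, and it was under the filter. The longest form, NM_001161845, was at 0.664 and 1.14 FPKM in CNS, and its dLN estimates were close to 0.

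**Figure D3:**
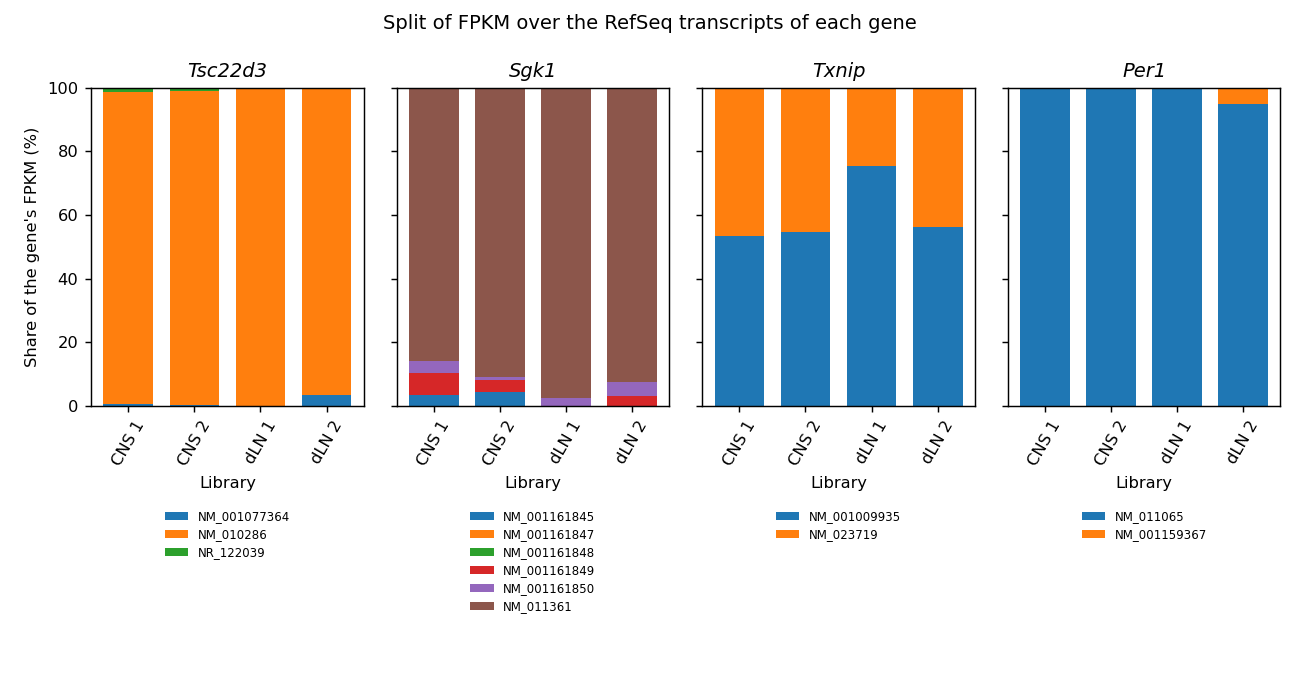
Share of the summed FPKM of Tsc22d3, Sgk1, Txnip and Per1 held by each RefSeq transcript (%), with 1 stacked bar per library. A single transcript held at least 86.1% of Tsc22d3, Sgk1 and Per1 in every library, whereas Txnip was divided between 2 transcripts.

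Txnip and Ddit4 encode brakes on growth metabolism. Txnip (chr3:96557957-96561857, plus strand) binds thioredoxin and lowers glucose uptake. Its level was 219 and 192 FPKM in CNS and 5.55 and 4.83 FPKM in dLN, with no overlap. The means were 205 ± 19.2 and 5.19 ± 0.510 FPKM (SD, n = 2), a ratio of 39.6, and the log2 ratio was 5.06 (SE 0.11, limma adjusted p 8.12e-05), the 23rd highest of 10634. Its 2 transcripts, of 2801 and 2798 bases, rose with log2 ratios of 4.67 and 5.13 (limma adjusted p 0.000266 for each), and the split of fragments between them is uncertain at this likeness. Exons of Txnip overlap the antisense gene Gm15441, which was read at 0.565 and 0.249 FPKM in CNS and listed at 0 in dLN. The library kit does not keep strand, so fragments of the overlap cannot be assigned to either.

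Ddit4 (chr10:59949675-59951770, minus strand) encodes REDD1, which acts through the TSC complex to lower mTORC1 activity. It was read at 176 and 229.9 FPKM in CNS and at 15.95 and 11.4 FPKM in dLN. Replicates differed in both tissues, by much less than the tissues did. The means of 203 ± 38.0 and 13.7 ± 3.20 FPKM (SD, n = 2) had a ratio of 14.8, and the log2 ratio was 3.80 (SE 0.20, limma adjusted p 0.000142), the 82nd highest.

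Klf9, Per1 and Zbtb16 encode regulators of transcription, and none of them was higher in CNS. Klf9 (chr19:23141226-23166911, plus strand) is a Krüppel-like factor that represses transcription and feeds back on hormone responses. Its level was 1.34 and 1.64 FPKM in CNS and 5.61 and 6.90 FPKM in dLN, from an estimated 86.5 and 108 fragments and 318 and 463 fragments. The CNS values were all below the dLN values. The means of 1.49 ± 0.212 and 6.25 ± 0.911 FPKM (SD, n = 2) gave a log2 ratio of -1.54 (SE 0.14, limma adjusted p 0.000579).

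Per1 (chr11:69098956-69109957, plus strand) encodes a period protein of the clock. It was read at 16.5 and 25.2 FPKM in CNS and at 28.7 and 35.7 FPKM in dLN. The groups did not overlap, yet CNS replicate 2 lay nearer to dLN replicate 1 than to CNS replicate 1. With means of 20.9 ± 6.15 and 32.2 ± 5.01 FPKM (SD, n = 2), the log2 ratio was -0.62 (SE 0.23, 95% interval -1.21 to -0.032), and the limma adjusted p was 0.0560. Without CNS replicate 2 the ratio was -0.91 with a limma adjusted p of 0.0307. Over the 13 alternatives tried, the adjusted p of Per1 ranged from 0.00924 to 0.228 and its ratio stayed below 0. Its relative Per2 was read at 0.101 and 0.196 FPKM in CNS and at 4.18 and 5.11 FPKM in dLN, a log2 ratio of -2.29 (SE 0.15, limma adjusted p 0.000223).

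Zbtb16 (chr9:48654297-48835945, minus strand) encodes PLZF, a factor of innate-like T cells that glucocorticoids induce in many other tissues. It was read at 0.0289 and 0.0749 FPKM in CNS and at 0.132 and 0.115 FPKM in dLN, about 2.99, 7.91, 11.98 and 12.3 fragments. It was not tested, and no fold is given at these counts.

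CNS replicate 2 is set beside CNS replicate 1 because of its markers of other cells. Of 35 myeloid, neural and endothelial markers, 31 were under 1 FPKM in dLN, and 26 of these were higher in CNS replicate 2, by a median of 0.80 on the log2 scale. Between the same libraries the 9 glucocorticoid genes had a signed median difference of 0.08, and all genes tested one of 0.0235. Differences of opposite sign cancel in such a median. Per1, Sgk1 and Ddit4 were higher in CNS replicate 2, by 0.58, 0.45 and 0.38 on the log2 scale, and Nr3c1 and Txnip differed by -0.26 and -0.19. Without CNS replicate 2 the log2 ratio was 0.43 for Nr3c1 and -0.91 for Per1. The 6 genes called with all libraries kept their direction. The part of other cells in the level of each gene was not tested.

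**Figure D4:**
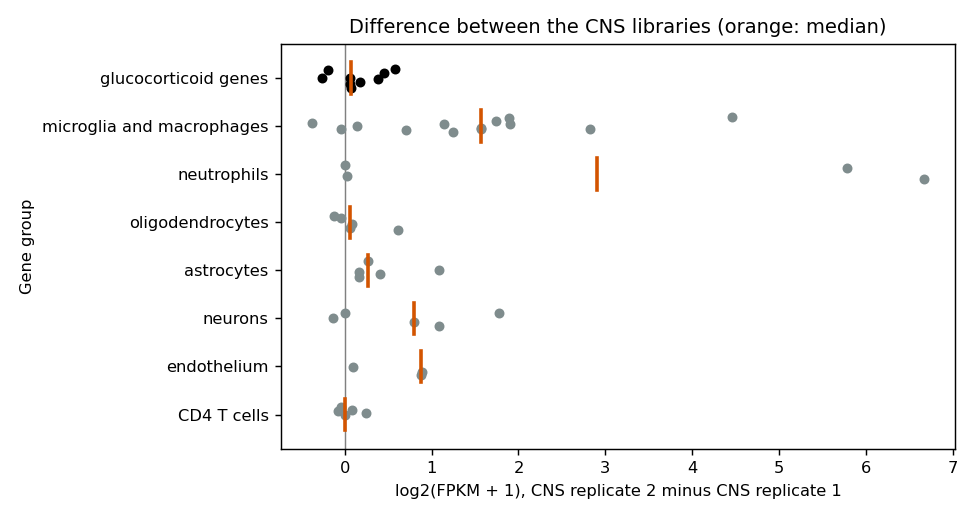
Difference of log2(FPKM + 1) between CNS replicate 2 and CNS replicate 1, with 1 point per gene and an orange bar at the median of each group. Markers of neutrophils (median 2.90) and of microglia and macrophages (1.57) were shifted upward in replicate 2. The 9 glucocorticoid genes had a signed median of 0.08 and ranged from -0.26 to 0.58.

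The machinery around the receptor was described with lists of known genes, chosen with earlier results of these data known. Of 13 receptor chaperones, all tested, 5 were higher in CNS, 7 lower and 1 not called, with a median log2 ratio of -0.77. The 38.5% higher is close to the 37.8% of all genes tested, and the 53.8% lower stands beside 37.2%. With each library scaled to the same sum, 3 were higher and 7 lower. Ppid, a cyclophilin that shares the receptor's chaperone with FKBP51, was read at 15.3 and 12.1 FPKM in CNS and at 119 and 126 FPKM in dLN, a log2 ratio of -3.08 (limma adjusted p 9.33e-05). Stip1, the adaptor between Hsp70 and Hsp90, and Ppp5c, a phosphatase bound to Hsp90, fell, with log2 ratios of -1.41 and -1.83. Dnajb1, an Hsp40 that responds to heat shock, rose by 3.49. Of 17 coregulators, 7 were higher, 5 lower and 5 not called, and the 70.6% called is near the 74.9% of all genes tested. The balance turned to 6 higher and 7 lower with the same sum and to 5 higher and 7 lower without CNS replicate 2, and was 6 and 6 by the median ratio. Kat2b, an acetyltransferase, and Ncoa1, the steroid receptor coactivator, rose by 1.77 and 1.13, and Med1 and Med14 of the Mediator complex fell, with log2 ratios of -0.967 and -0.999.

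Genes that handle the hormone were mostly low. Of 10, including the second receptor for corticosteroids, 4 passed the filter. Hsd11b1, the enzyme that regenerates active corticosterone from its inert form, was read at 73.3 and 62.2 FPKM in CNS and at 3.09 and 1.83 FPKM in dLN. The CNS libraries lay far above the dLN libraries, with a log2 ratio of 4.33 (SE 0.21, limma adjusted p 0.000109). H6pd, which supplies its cofactor, rose by 1.07. Abcb1a, an efflux pump that exports the hormone, rose by 3.14, whereas its close copy Abcb1b had a log2 ratio of -0.37 (limma adjusted p 0.0385) and was not called with libraries scaled to the same upper quartile or without CNS replicate 2. Fragments of these near-identical copies may have been divided between them. The mineralocorticoid receptor gene Nr3c2 reached at most 0.0118 FPKM, and the synthesis genes Cyp11b1, Cyp21a1 and Hsd3b1 were listed at 0 in all 4 libraries.

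Of 25 other genes known to be induced by glucocorticoids, 22 were tested, and 12 were higher in CNS, 3 lower and 7 not called. These are 54.5% higher and 13.6% lower, where the background was 37.8% and 37.2%, and the list's median log2 ratio was 1.16. The genes of this list were also chosen with earlier results known, so the shares are a description only. Anxa1, which encodes the anti-inflammatory annexin A1, was read at 75.8 and 60.5 FPKM in CNS and at 2.50 and 1.12 FPKM in dLN (log2 ratio 4.66). Dusp1, a phosphatase of MAP kinases, was at 236 and 331 FPKM in CNS and at 20.1 and 20.9 FPKM in dLN (log2 ratio 3.71). Il7r, the survival cytokine receptor, and Cxcr4, a chemokine receptor, rose by 3.82 and 3.47. The 3 lower genes were Per2, Errfi1 and Sesn1, named because they are few, and 5 were lower with libraries scaled to the same sum or by the median ratio and without CNS replicate 2.

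Of 17 inflammatory genes known to be repressed by glucocorticoids, 4 were higher in CNS, 8 lower and 5 not called, which is 23.5% higher and 47.1% lower beside 37.8% and 37.2% of all genes tested. The median log2 ratio of 0.03 had no stable sign, at -0.17 with libraries scaled to the same sum and at -0.42 without CNS replicate 2, where 6 were higher and 8 lower. Il2 was read at 18.2 and 38.8 FPKM in CNS and at 5363 and 6176 FPKM in dLN. Il4 was at most 0.225 FPKM in CNS and at 266 and 273 FPKM in dLN. Il17a fell by 5.01 on the log2 scale. The higher genes, named because they are few, were Ifng, Ptgs2, Icam1 and Cxcl10. The CNS libraries differed in Ptgs2, at 2.23 FPKM in replicate 1 and 16.5 FPKM in replicate 2, and in Cxcl10, at 15.6 and 51.7 FPKM.

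Several of these cytokines also belong to a list of 16 genes that PMA and ionomycin induce in T cells. Of the list, 15 were lower in CNS and 1 (Cd69) was higher, with a median log2 ratio of -4.07. All 16 were called, against 74.9% of all genes tested, but the genes of the list were chosen with earlier results of these data known. Tnfsf8 and Il22 from that list fell, with log2 ratios of -6.55 and -5.71. The list does not hold every gene that PMA and ionomycin induce. A place outside it therefore does not mark a gene as not induced. Among the glucocorticoid-repressed cytokines outside the list, Ifng rose by 1.43 and Csf2 was not called (0.03). Ifng was read at 469 and 693 FPKM in CNS and at 324 and 138 FPKM in dLN. Il5 and Il13, also outside the list, fell, with log2 ratios of -4.00 and -4.54. These were named after their values were seen. Tissue and the state of activation cannot be told apart here, and the part of activation in the levels of the glucocorticoid genes was not tested.

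**Figure D5:**
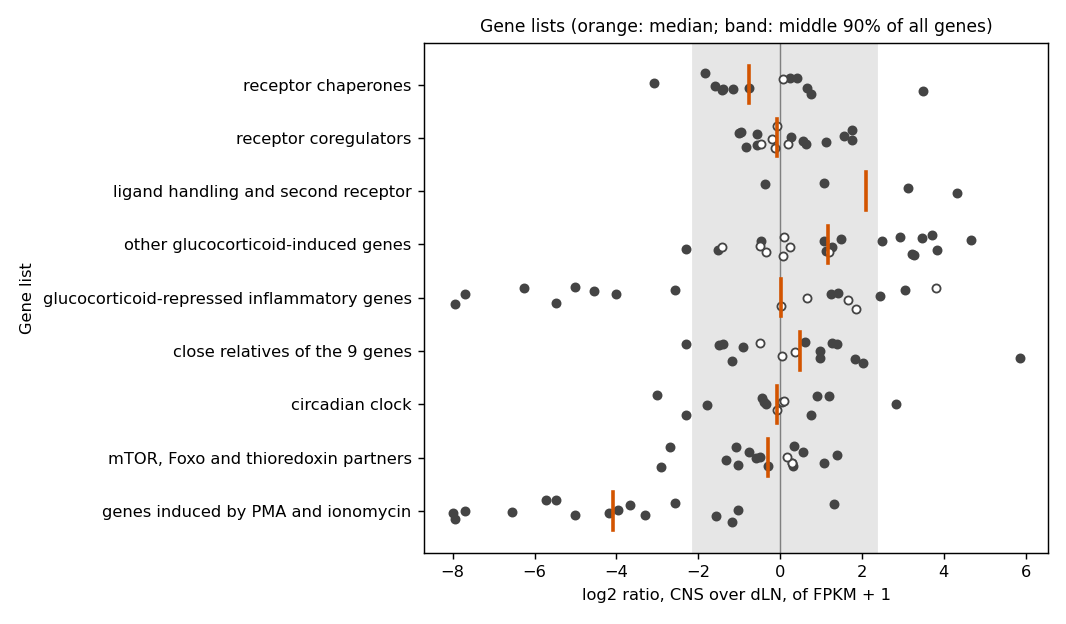
Log2 ratio of CNS over dLN of each tested gene of 9 lists, with filled points for called genes, an orange bar at each median and a grey band for the middle 90% of all genes. The other glucocorticoid-induced genes had a median of 1.16 and the listed genes induced by PMA and ionomycin one of -4.07.

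Of 21 close relatives of the 9 genes, 16 were tested, and 8 were higher, 5 lower and 3 not called. Of all genes tested, 37.8% were higher and 37.2% lower, so calls in both directions are not particular to the relatives. Tsc22d4, of the same family as GILZ, was read at 75.5 and 81.3 FPKM in CNS and at 22.2 and 20.4 FPKM in dLN (log2 ratio 1.83), whereas Tsc22d2 was at 3.80 and 4.90 FPKM in CNS and at 12.2 and 15.7 FPKM in dLN (log2 ratio -1.48). Klf2, a factor of T cell quiescence and egress, was at 179 and 216 FPKM in CNS and at 2.52 and 2.28 FPKM in dLN, opposite in direction to Klf9. Zbtb7b, the factor of CD4 lineage choice, rose by 2.03 on the log2 scale. Sgk3 was under the filter, with at most 0.906 FPKM.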

How the data were processed

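RNA of CD44+CD4 cells was measured in 4 libraries, 2 from CNS and 2 from dLN, grouped by the sample labels. Values were deposited by the authors as FPKM for 33819 RefSeq transcripts (mm10), in 1 table per tissue, and the program that made them is not given in the sources used here. The header of the CNS table names both libraries in 1 cell, and its columns were taken in that order. FPKM were summed per symbol, leaving out 565 transcripts without one (0.142% to 0.446% of FPKM). Coordinates are counted from 1. Strand came from GENCODE M21 and promoter sequences from RefSeq (GRCm38.p6).

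A gene whose mean reached 1 FPKM in either tissue was tested on log2(FPKM + 1) with limma 3.58.1 in R 4.3.3 (lmFit, eBayes with trend), with Benjamini-Hochberg adjustment over 10634 genes, and transcripts likewise. Python 3.11.15, numpy 2.4.6, pandas 2.3.3 and matplotlib 3.10.9 were used for the rest. An exact permutation test of 2 against 2 cannot go below p = 0.333. Depth came from the spacing of low FPKM, of which 90.4% to 93.7% were whole fragments within 0.05. The depth was chosen to make this share largest, so the share is no separate check. The depth estimate and the limma test were both tested on simulated data. The simulation for limma changed far fewer genes than were called here. From each list, up to 6 called genes with the log2 ratios of largest size were named, besides a few fixed ones and those said to be chosen after their values were seen. The 9 genes and the lists were chosen with earlier results of these data known.

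Replicate numbers are shared by the tissues, but no source pairs them. Xist and Y-linked transcripts split by tissue, so the tissues appear to come from different mice. Alternatives covered the pseudocount (0.1), 3 scalings, the highest transcript, no filter or 5 FPKM, a replicate block, no trend, a 2-fold minimum and leaving out each library.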

Additional observations from a re-analysis of the deposited data

How the results depend on the processing

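Tsc22d3, Txnip, Ddit4, Sgk1, Fkbp5 and Klf9 kept their direction and their call under the 13 alternatives, and Nr3c1 and Per1 kept their direction. With the 2-fold minimum Fkbp5 alone of these was not called. Nr3c1 was called with libraries scaled to the same upper quartile (0.43, limma adjusted p 0.0278), and Per1 with the same sum (-0.81, adjusted p 0.0167), the median ratio (-0.64, 0.0410) and a minimum of 5 FPKM (-0.62, 0.0459). The balance of calls turned in some settings. Scaling to the same sum or upper quartile shifted the median of all genes by -0.17 or 0.12, and 43.1% or 55.6% of calls were then higher in CNS, against 50.4%. With a replicate block, 7828 genes and 7 of the glucocorticoid genes were called, Per1 among them (-0.62, limma adjusted p 0.00924). The correlation of the replicate differences across tissues was 0.0933 with only 2 pairs, and the sex-linked transcripts split by tissue. The numbers were therefore not taken as pairs. At 2-fold or more, 4168 genes were called in place of 7968.

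Leaving out each library in turn gave ranges of 0.17 to 0.43 for Nr3c1, -0.91 to -0.33 for Per1, 0.86 to 1.08 for Fkbp5, 1.38 to 1.84 for Sgk1, 3.58 to 4.02 for Ddit4, 4.96 to 5.15 for Txnip, 5.40 to 5.48 for Tsc22d3 and -1.67 to -1.41 for Klf9. The calls of Nr3c1 and Per1 were gained without CNS replicate 2. The lone library of a tissue is then assumed to vary like the others. The cause of these shifts was not tested. List counts under 3 scalings and without CNS replicate 2 were chosen after seeing the data. At this depth Zbtb16 rested on 12.3 fragments or fewer per library.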

Other observations

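Of 13 clock genes tested, 4 were higher in CNS, 6 lower and 3 not called, with a median log2 ratio of -0.08. The 76.9% called is near the 74.9% of all genes tested, so the count is not a result about clock genes. Bhlhe40, a clock repressor also needed for cytokine production in T cells, was read at 361 and 440.4 FPKM in CNS and at 62.2 and 49.5 FPKM in dLN. Npas2, a partner of Bmal1, was at 0.107 and 0.439 FPKM in CNS and at 8.61 and 9.88 FPKM in dLN. Cry2 fell by 1.78 on the log2 scale, while Dbp and Nfil3 rose by 1.19 and 0.91.

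Of 17 partners of Ddit4, Txnip and Sgk1 in the mTOR, Foxo and thioredoxin pathways, 5 were higher in CNS, 9 lower and 3 not called, beside 37.8% higher and 37.2% lower over all genes tested. With libraries scaled to the same sum 3 were higher and 9 lower, and with the same upper quartile 7 were higher and 8 lower. Sesn2, a stress-induced brake on mTORC1, was read at 3.23 and 4.29 FPKM in CNS and at 31.3 and 37.7 FPKM in dLN, opposite in direction to Ddit4. Rheb, which activates mTORC1, fell by 1.08 on the log2 scale. Ndrg1, a substrate of SGK1, was at 11.02 and 15.4 FPKM in CNS and at 87.9 and 92.0 FPKM in dLN, opposite in direction to Sgk1. Sesn3 and Foxo3 rose by 1.38 and 1.08. Thioredoxin reductase Txnrd1 fell by 1.33, and thioredoxin Txn1, which the Txnip protein binds, rose by 0.33 (limma adjusted p 0.0141).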
